A study of Mus musculus with 25 samples.

Results

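The genes described here are 32 genes of the red cell lineage and of haem synthesis. Each was matched to the array by its gene symbol, and where a gene had several probe sets the brightest one, judged by its mean across the 25 arrays, was used. Of the 32 genes, 31 were measured, out of 18193 genes with a probe set of 1 symbol, and Ahsp was not analysed here. By role they were 7 enzymes of haem synthesis (Alas2, Alad, Uros, Urod, Cpox, Ppox and Fech), 4 globins (Hbb-b2, Hbb-bh1, Hbb-y and Hba-x), 7 regulators (Gata1, Klf1, Tal1, Gfi1b, Nfe2, Hemgn and Trim10), 2 receptors (Epor and Tfrc) and 11 membrane, skeleton and blood group genes (Rhag, Rhd, Slc4a1, Kel, Epb42, Ank1, Add2, Ermap, Tspo2, Xk and Tmod1).

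The arrays held RNA of 10 groups of mouse samples in a study of engineered cell types and of the native tissues they are meant to resemble. Fetal liver (n = 2) came fresh from C57BL/6J fetuses at E14.5. Adult liver (n = 2) was labelled as freshly taken liver of C57BL/6J mice aged 8 weeks and also as collagenase-isolated hepatocytes of mice aged 10 weeks, so its cell content was not settled by its labels. Induced hepatocytes (iHep, n = 3) were lines labelled as independent, grown from C57BL/6J embryonic fibroblasts (E13.5) carrying Foxa1 and Hnf4a retroviruses. Further iHeps received lentiviral scramble shRNA or Cdx2 shRNA (n = 4 each) and 2 days of puromycin. Engrafted iHeps (n = 2) were sorted by their GFP from DSS-damaged colons of Rag2gammac-/- mice, a strain without lymphocytes, after 12 days. Colon samples (n = 2) were dissociated crypts of 8-week Rag2gammac-/- mice. Induced macrophages (iMac, n = 2 per group) were C10 cells, 1 pre-B cell line, given scramble, Ebf1 or Pou2af1 shRNA and selected with puromycin for 2 days. They were converted with estradiol, IL-3 and CSF-1. An estradiol dose, 100 nM, was recorded for the scramble arrays and not for the Ebf1 or Pou2af1 shRNA arrays they are compared with. The labels do not say whether replicates other than the iHep lines were separate cultures or animals, and p-values therefore speak only to the spread among these arrays, which may be technical.

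Red cells of the mid-gestation mouse fetus mature in the liver, which is at that stage a blood-forming organ. A small set of transcription factors, with Gata1, Tal1 and Klf1 among them, switches on haem synthesis, globins and the proteins of the red cell membrane together. The first enzyme of the haem pathway exists as a red cell form, encoded by Alas2, and a general form, encoded by Alas1, while the later enzymes are shared by all tissues, including hepatocytes.

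Values are log2 signals, so a difference of 1 is a doubling, and values of different probe sets were not compared with each other. A level under the 40th percentile of its array, which lay between 5.52 and 5.80, was treated as near background, and a difference measured against such a level is limited by that background. The hepatocyte marker list had a mean of 13.03 to 13.17 in adult liver, 9.52 to 9.98 in fetal liver, 6.59 to 8.44 in iHeps and 4.85 to 5.19 in iMacs. The B lineage markers averaged 8.84 to 9.86 in iMacs, above the 7.57 and 8.78 of fetal liver, and the macrophage markers averaged 6.98 to 7.66 in iMacs, below the 8.72 and 9.41 of fetal liver. The macrophage markers did not move as 1 block. By the test given below, 7 of 13 were higher and 3 lower in fetal liver than in scramble iMacs. The arrays also fell into sets by the signal of 24 probe sets for added control RNAs, at 8.30 to 10.42 in the 15 arrays of fetal liver, adult liver and all cultured iHeps and at 3.84 to 4.29 in the 10 arrays of iMacs, engrafted iHeps and colon. Fetal liver against adult liver and against iHeps lay within the first set. For fetal liver against colon or iMacs and for engrafted against cultured iHeps, the control signal and the group cannot be told apart.

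All 31 measured genes were higher in fetal liver than in adult liver and than in iHeps at the threshold used throughout, a Benjamini-Hochberg adjusted p under 0.05 over all genes tested with limma. The background share of higher genes was 31.1% of 15262 genes tested against adult liver, with 18.2% lower, and 13.1% against iHeps, with 19.9% lower. The median difference of the 31 genes was 4.97 against adult liver, where all genes tested had a median of 0.16, and 5.37 against iHeps, where all genes had -0.05. All 31 genes passed the filter on low values, 7 of them only through the fetal arrays, and those 7 had to differ if they passed. The 7 were Hbb-b2, Hbb-y, Tal1, Hemgn, Rhag, Slc4a1 and Kel. Some other lists moved with the 31 genes. The stem and progenitor mean was 9.02 to 9.04 in fetal and 5.43 to 6.18 in adult liver (10 of 11 genes higher). The proliferation mean was 12.28 to 12.40 in fetal liver, 5.62 to 6.32 in adult liver (9 of 9 genes higher) and 10.91 to 11.68 in iHeps (5 of 9 higher). Other lists did not rise as 1 block against adult liver. Of the hepatocyte markers 1 was higher and 15 lower of 18, and of the macrophage markers 1 was higher and 3 lower of 13. The mast cell and basophil list had 3 higher and 1 lower of 8, and the B lineage list 4 higher and 0 lower of 9. Against iHeps the stem and progenitor list had 8 of 11 genes higher and 2 lower. The macrophage mean was 8.72 to 9.41 in fetal liver and 5.11 to 5.29 in iHeps (12 of 13 higher), the megakaryocyte and platelet mean 9.43 to 9.56 and 6.07 to 6.28 (11 of 13 higher) and the B lineage mean 7.57 to 8.78 and 5.35 to 5.41 (7 of 9 higher). Their part in the result was not tested. In bulk RNA, fewer cells of a type and less RNA per cell cannot be told apart.

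**Figure D1:**
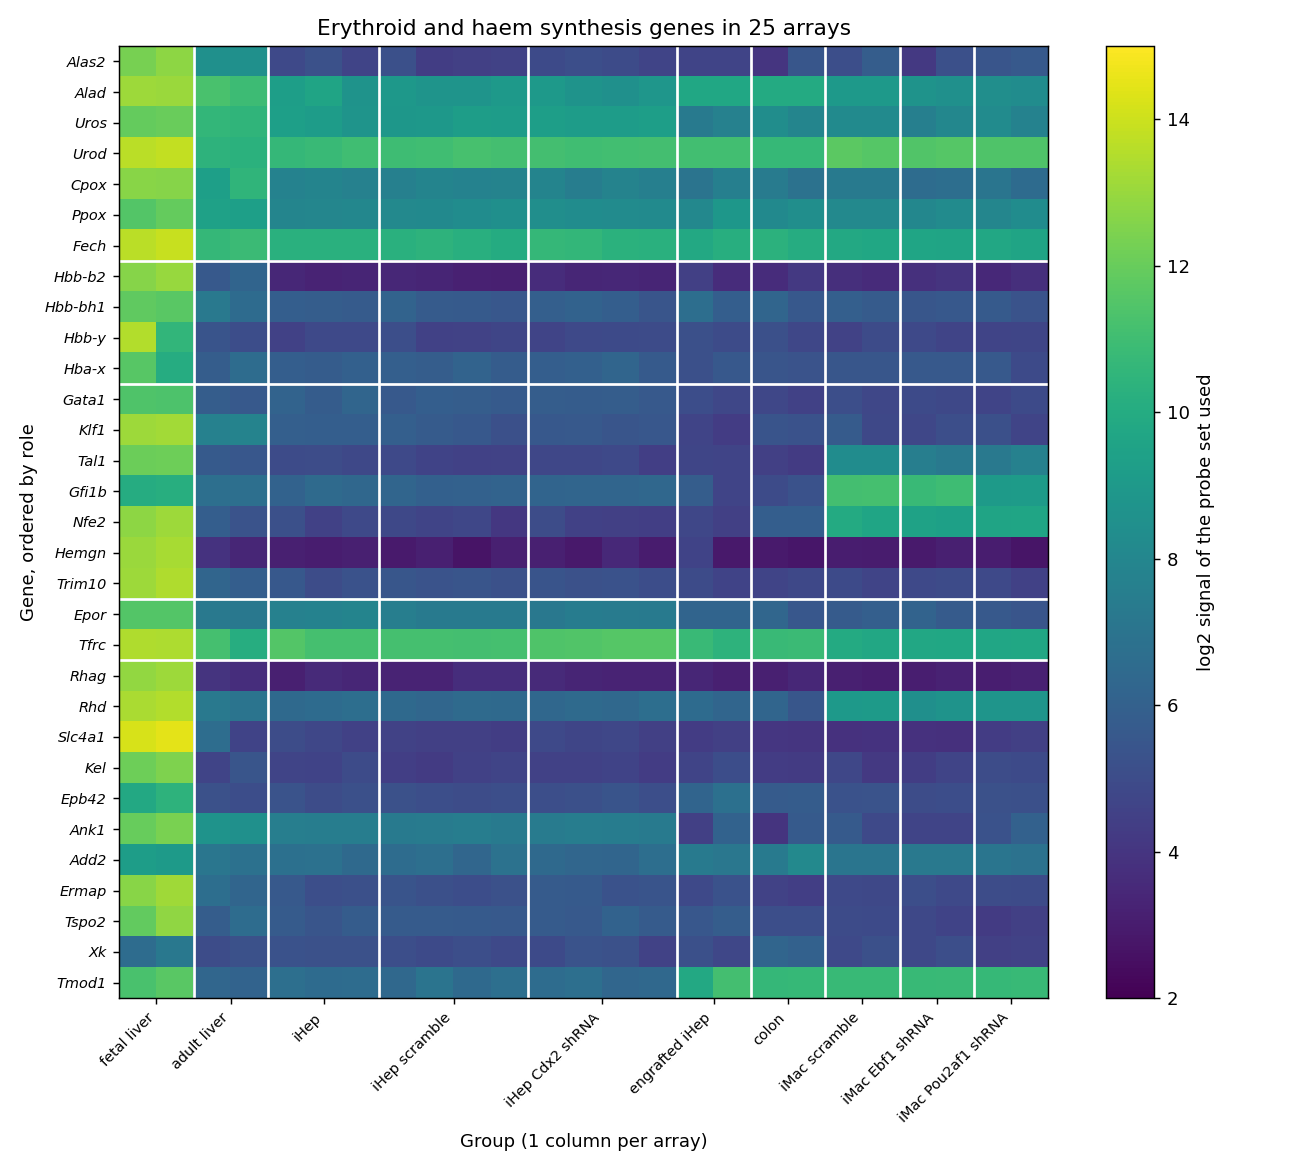
Heat map of the log2 signal of 31 genes (rows, ordered by role, white lines between roles) in 25 arrays (columns, white lines between groups). The 2 fetal liver columns are the brightest in 30 of 31 rows. In the 6 iMac columns Gfi1b, Tal1, Nfe2, Rhd, Tmod1 and Urod are brighter than in adult liver and all cultured iHeps.

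In 30 of the 31 genes both fetal liver arrays lay above each of the other 23 arrays, the exception being Gfi1b. Among 15623 genes, 7.74% had both fetal arrays on top in this way. With the probe sets used, the largest log2 differences from adult liver were those of Hemgn, a nuclear protein of red cell precursors, of Rhag, the Rh-associated glycoprotein of the red cell membrane, and of Slc4a1, the anion exchanger known as band 3. Hemgn and Rhag were near background in every array outside fetal liver, so the size of their differences is limited by that background. Other probe sets gave 9.42 for Epb42 and 9.19 and 9.10 for Hbb-y, in the range of these 3 genes. At the other end, Uros, Xk, Alad and Add2 had the smallest differences from adult liver with the probe sets used, at 1.44 to 2.15, while other probe sets gave 3.88 and 5.01 for Add2 and 2.33 for Uros.

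The promoters of 8 of these genes are printed because the genes moved together in fetal liver while Gfi1b and Tmod1 were also high elsewhere. RefSeq's table for GRCm38.p6 held a promoter for 25 of the 32 genes, and Hbb-bh1, Nfe2, Slc4a1, Ahsp, Fech, Hbb-b2 and Ank1 had no entry there. Each window is the 250 bases before the start of the gene, read 5′ to 3′ on its strand: Alas2 at chrX:150547167-150547416 (plus), Hbb-y at chr7:103853208-103853457 (minus), Hba-x at chr11:32276350-32276599 (plus), Klf1 at chr8:84901732-84901981 (plus), Gfi1b at chr2:28621983-28622232 (minus), Hemgn at chr4:46404184-46404433 (minus), Rhag at chr17:40810899-40811148 (plus) and Tmod1 at chr4:46038972-46039221 (plus). Capitals mark matches on either strand to a GATA word, which was AGATAA or its variant AGATAG or the word TGATAA or its variant TGATAG, and to CCACCC. Words of the first form are known to bind GATA factors and words of the second to bind Klf1.
Alas2: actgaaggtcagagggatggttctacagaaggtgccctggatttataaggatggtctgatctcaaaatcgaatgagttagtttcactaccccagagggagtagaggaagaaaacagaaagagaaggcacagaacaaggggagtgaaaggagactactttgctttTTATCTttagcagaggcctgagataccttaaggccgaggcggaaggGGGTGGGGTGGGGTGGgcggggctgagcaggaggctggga
Hbb-y: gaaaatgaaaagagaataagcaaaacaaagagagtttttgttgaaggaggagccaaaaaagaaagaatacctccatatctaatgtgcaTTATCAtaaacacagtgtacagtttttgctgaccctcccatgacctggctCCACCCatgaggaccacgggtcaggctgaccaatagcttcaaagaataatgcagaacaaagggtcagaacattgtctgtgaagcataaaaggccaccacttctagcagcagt
Hba-x: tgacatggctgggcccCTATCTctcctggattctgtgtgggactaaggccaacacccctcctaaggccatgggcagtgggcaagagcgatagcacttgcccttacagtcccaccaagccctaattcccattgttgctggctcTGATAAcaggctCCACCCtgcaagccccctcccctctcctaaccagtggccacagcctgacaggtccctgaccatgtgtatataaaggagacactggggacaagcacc
Klf1: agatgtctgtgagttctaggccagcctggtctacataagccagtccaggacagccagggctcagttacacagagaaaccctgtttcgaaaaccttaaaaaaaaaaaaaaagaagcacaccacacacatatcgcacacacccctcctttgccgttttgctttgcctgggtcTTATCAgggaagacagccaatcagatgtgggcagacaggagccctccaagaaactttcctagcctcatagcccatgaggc
Gfi1b: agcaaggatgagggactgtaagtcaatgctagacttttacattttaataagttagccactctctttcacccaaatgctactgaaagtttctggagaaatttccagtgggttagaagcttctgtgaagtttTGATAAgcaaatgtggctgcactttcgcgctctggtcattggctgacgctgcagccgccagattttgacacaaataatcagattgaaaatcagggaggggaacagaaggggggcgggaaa
Hemgn: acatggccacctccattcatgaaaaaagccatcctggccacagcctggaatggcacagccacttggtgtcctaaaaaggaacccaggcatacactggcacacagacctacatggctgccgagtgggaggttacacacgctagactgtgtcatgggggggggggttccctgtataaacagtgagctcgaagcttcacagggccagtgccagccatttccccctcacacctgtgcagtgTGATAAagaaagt
Rhag: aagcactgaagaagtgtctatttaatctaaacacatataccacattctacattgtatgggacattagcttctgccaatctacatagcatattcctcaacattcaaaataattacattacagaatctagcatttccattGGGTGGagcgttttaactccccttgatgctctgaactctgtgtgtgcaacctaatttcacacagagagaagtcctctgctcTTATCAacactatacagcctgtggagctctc
Tmod1: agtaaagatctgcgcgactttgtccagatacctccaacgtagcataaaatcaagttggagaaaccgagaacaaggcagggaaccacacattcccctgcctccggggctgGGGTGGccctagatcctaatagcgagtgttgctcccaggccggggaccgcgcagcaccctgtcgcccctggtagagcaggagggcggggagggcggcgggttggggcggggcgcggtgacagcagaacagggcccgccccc
A GATA word stood in a promoter of 17 of the 25 genes (68.0%), against 29.7% of the 27025 genes in the table. The 25 genes had 29 promoters there, and a gene with several promoters counted if any of them matched. CCACCC stood in a promoter of 13 genes (52.0%), against 30.6%, and both kinds stood in the same promoter of 8 genes (32%), against 6.7%. In the printed windows no match of 1 kind overlapped the other, and the 3 CCACCC matches of Alas2, which began 40, 35 and 30 bases before the start, each shared a base with the next. The GATA word of Hemgn began 13 bases before the start, that of Rhag 31, that of Klf1 80, that of Alas2 86 and that of Gfi1b 120. Tmod1 had no GATA word in its window and 1 CCACCC. Among the genes not printed, Gata1, Tspo2, Xk and Tfrc also had CCACCC and no GATA word, and Ppox, Alad and Urod had neither. A match is a description of letters, and these arrays did not measure binding.

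Among the haem enzymes, Alas2 had the largest difference from adult liver with the probe sets used. Another probe set of Fech gave 4.57 and another of Urod 4.19, which is no smaller. Its signal was 12.35 and 12.81 in the fetal arrays and 8.51 and 8.54 in adult liver and 3.99 to 5.84 in the other 21 arrays, where it lay mostly near background. The order of fetal liver, adult liver and the rest therefore had no overlap. The difference was 4.05 ± 0.42 (SE) against adult liver (adjusted p = 3.6e-05), 7.66 ± 0.39 against iHeps and 7.10 ± 0.39 against scramble iMacs. The general form behaved differently: Alas1, named after its values were seen, was at 10.24 and 10.17 in fetal liver and 10.02 and 9.88 in adult liver, a difference of 0.26 ± 0.24 that did not pass the test (adjusted p = 0.42).

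The 6 later enzymes were above the 40th percentile in every array and rose in fetal liver from that base. Fech, ferrochelatase, which inserts the iron, was at 13.65 and 13.90 in fetal liver, 10.68 and 10.86 in adult liver, 10.24 to 10.27 in the 3 iHep lines and 9.58 to 9.84 in the 6 iMac arrays. Urod, which removes carboxyl groups from uroporphyrinogen, was at 13.63 and 13.82 in fetal liver and 10.39 and 10.30 in adult liver, below the 10.64 to 11 of iHeps and the 11.41 to 11.71 of iMacs. Cpox, coproporphyrinogen oxidase, was at 12.67 and 12.65 in fetal liver, with adult liver arrays apart at 9.35 and 10.51. Fetal liver thus stood above every other group for these 3 enzymes, with the iMac arrays next for Urod and adult liver next for Fech and Cpox.

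Against adult liver the differences of these enzymes were 3.38 ± 0.21 for Urod, 3.01 ± 0.22 for Fech, 2.73 ± 0.38 for Cpox and 2.35 ± 0.28 for Ppox, the oxidase before ferrochelatase. Alad, which joins pairs of aminolevulinate, differed by 1.98 ± 0.29 and Uros, the uroporphyrinogen synthase, by 1.44 ± 0.27. Against iHeps the 6 enzymes differed by 2.91 to 4.88, and against scramble iMacs by 2.08 to 5.36. The size of the step therefore depended on the comparison group, and with the probe sets used, Urod had a larger difference from adult liver than the other 5 later enzymes and the smallest from iMacs.

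The wider list of 26 other genes of haem and iron handling had 22 tested, of which 12 were higher and 5 lower in fetal than in adult liver. Slc25a37, the mitochondrial iron importer mitoferrin 1, was higher by 4.99 ± 0.34 and Blvrb, a biliverdin reductase, by 4.20 ± 0.30. Hamp, the hepatocyte hormone hepcidin, was at 6.21 and 5.88 in fetal liver and 12.40 and 13.17 in adult liver, a difference of -6.74 ± 0.28. Slc40a1, the iron exporter ferroportin, was at 11.84 and 11.97 against 12.72 and 12.17, a difference of -0.54 ± 0.43 that did not pass the test. Against iHeps 14 of the 22 were higher and 0 lower, and 8 did not pass the test.

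**Figure D2:**
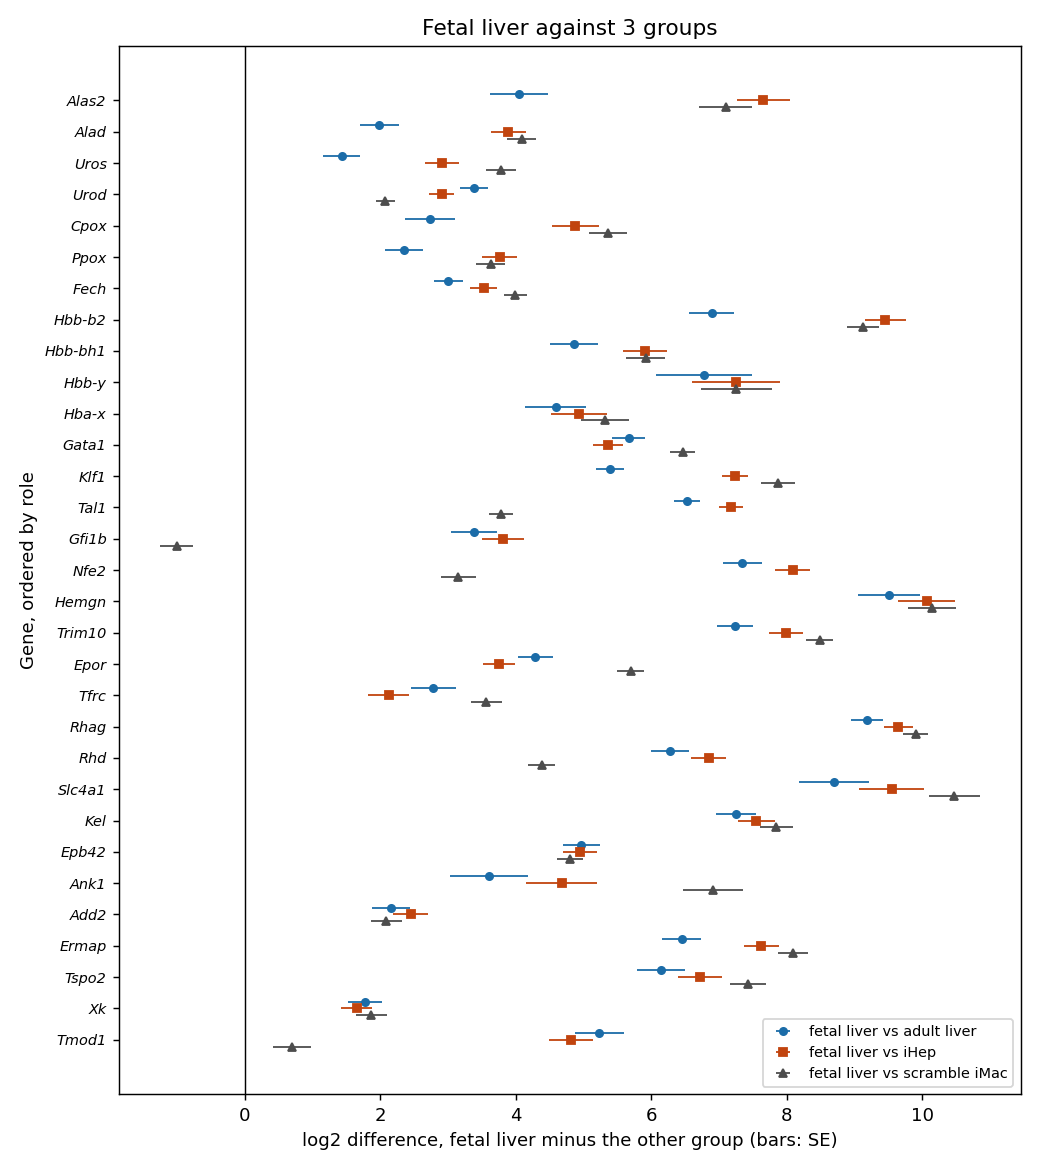
Differences in log2 signal, fetal liver minus adult liver (circles), iHeps (squares) or scramble iMacs (triangles), for 31 genes ordered by role, with bars of 1 SE. Every point lies right of 0 except that of Gfi1b against scramble iMacs, at -1.01, and Tmod1 lies at 0.69 in the same comparison.

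All 4 globins were higher in fetal liver than in each of the other groups it was compared with. Hbb-b2, an adult beta globin, was at 12.62 and 12.99 in fetal liver and 5.64 and 6.18 in adult liver, and between 3.16 and 4.48 in the other 21 arrays. Hbb-bh1, an embryonic beta-like globin, was at 11.81 and 11.67 in fetal liver, 7.24 and 6.52 in adult liver and 5.35 to 6.71 elsewhere. The fetal arrays stood alone, and adult liver stood above the rest without overlap for Hbb-b2 but not for Hbb-bh1. The differences from adult liver were 6.89 ± 0.33 for Hbb-b2 and 4.86 ± 0.35 for Hbb-bh1. The used probe set of Hbb-b2 is of a type that can share probes with other transcripts, and its other probe set was lower in fetal liver (3.90 and 4.04) than in adult liver (5.50 and 5.39), all near background. Probe sets given to several globin symbols, used in no comparison, read 10.98 to 13.87 in adult liver and 13.79 to 15.01 in fetal liver. The Hbb-b2 difference therefore does not describe the globin signal of adult liver as a whole.

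Hbb-y and Hba-x separated the 2 fetal arrays. Hbb-y, the epsilon-like globin of primitive red cells, was at 13.48 in replicate 1 and 10.55 in replicate 2, a gap of 2.93. No other gene of the 15262 tested had a gap as large, and Hbb-y itself makes up the 0.00655% that reached it. Hba-x, the zeta globin of primitive red cells, was at 11.60 and 10.03, and a gap of 1.57 or more was found in 0.341% of genes. The direction of the gap was the same, while Hbb-bh1 differed by 0.14 and Hbb-b2 by -0.37.

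The other 2 probe sets of Hbb-y gave 14.12 and 14 in fetal replicate 1 and 12.18 and 11.95 in replicate 2, so the gap did not rest on 1 probe set. In adult liver they gave 5.31 and 5 in replicate 1 and 2.79 and 2.56 in replicate 2. The set as a whole leaned the other way in fetal liver: 23 of the 31 genes were higher in replicate 2, and the median of replicate 1 minus replicate 2 was -0.20, against 0.07 over all genes tested. Tspo2, a cholesterol-binding membrane protein of late red cell precursors, had the largest such gap, at 11.86 and 12.86, which 2.25% of genes reached.

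Other marker lists moved with the fetal replicates. The B lineage mean was 7.57 in replicate 1 and 8.78 in replicate 2, the macrophage mean 8.72 and 9.41 and the hepatocyte mean 9.98 and 9.52. The stem and progenitor mean was 9.04 and 9.02 and the proliferation mean 12.40 and 12.28. Their part in the gap of the globins was not tested. With a spread of 2.07 (SD, n = 2) in fetal liver, Hbb-y differed from adult liver by 6.78 ± 0.71 and from iHeps by 7.26 ± 0.65. Hbb-y passed the filter only through the fetal arrays, so its adjusted p of 3.74e-05 against adult liver is no separate support. Hba-x, at 5.85 and 6.61 in adult liver and 4.90 to 6.25 in the remaining 21 arrays, differed from adult liver by 4.59 ± 0.45 and from iHeps by 4.93 ± 0.41.

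**Figure D3:**
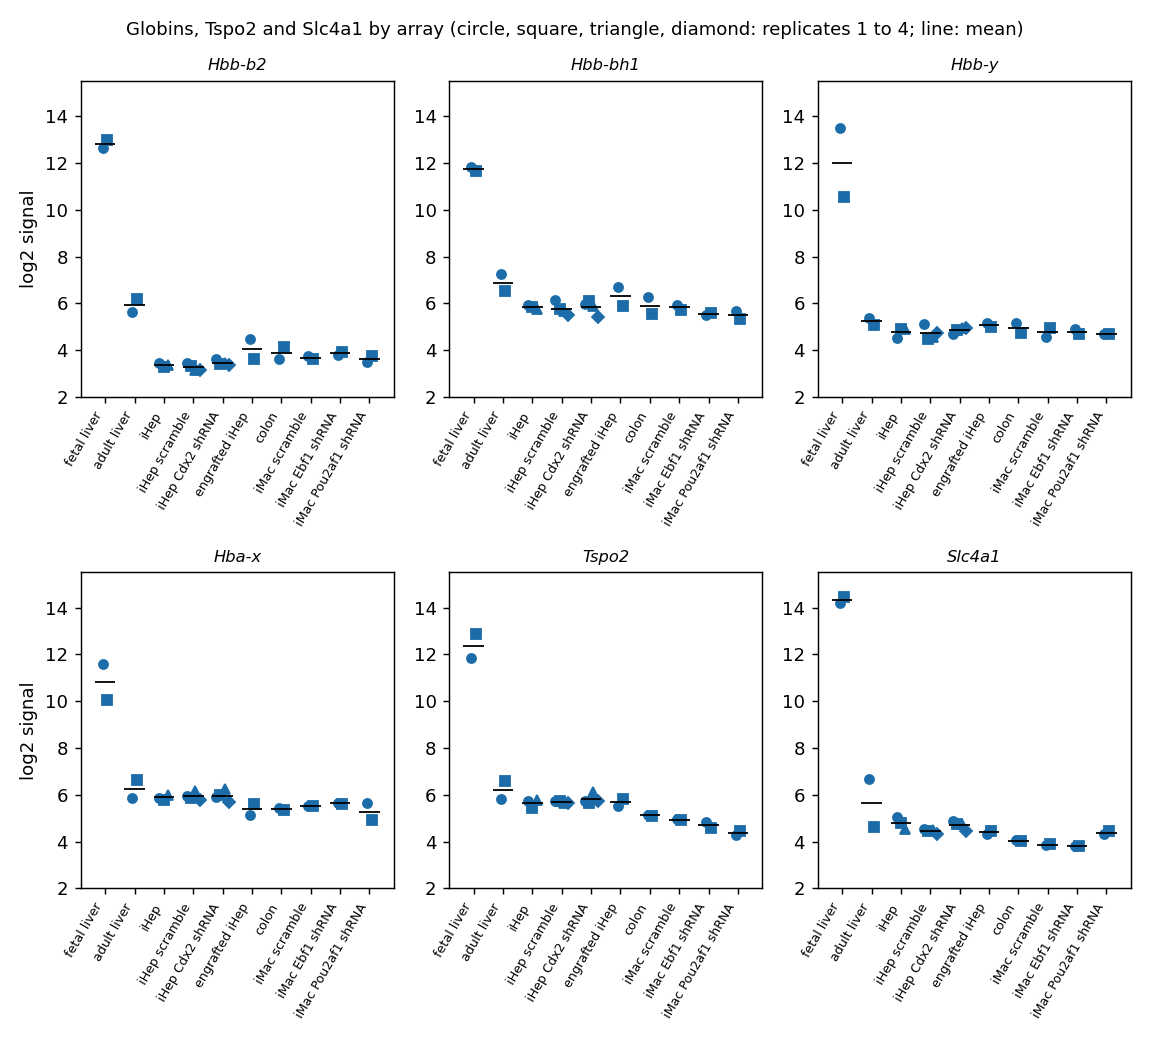
Log2 signal of 4 globins, Tspo2 and Slc4a1 in each array of the 10 groups (circles, squares, triangles and diamonds are replicates 1 to 4, lines are group means). The 2 fetal liver points lie 2.93 apart for Hbb-y and 1.57 apart for Hba-x, with replicate 1 higher, and the adult liver points of Slc4a1 lie 2.06 apart.

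Of the 7 regulators, Hemgn, Klf1, Gata1 and Trim10 were near background in nearly all iMac arrays and high in fetal liver. Gata1, a GATA factor of the red cell lineage, was at 11.44 and 11.39 in fetal liver. It was at 5.84 and 5.65 in adult liver and 5.76 to 6.25 in iHeps. Klf1, the red cell Krüppel-like factor, was at 13.12 and 13.20, with adult liver at 7.70 and 7.83 and the other 21 arrays at 4.33 to 5.96. Adult liver stood apart from the rest for Klf1 and not for Gata1. Hemgn was at 13.05 and 13.29 in fetal liver and at 2.70 to 4.63 in all other arrays, with the highest of these in engrafted replicate 1, whose partner was at 2.88.

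The differences from adult liver were 9.51 ± 0.46 for Hemgn, 7.24 ± 0.27 for Trim10, a ring finger protein of late red cell precursors, 5.67 ± 0.24 for Gata1 and 5.39 ± 0.21 for Klf1. Against iHeps they were 10.07 ± 0.42, 7.99 ± 0.25, 5.37 ± 0.22 and 7.23 ± 0.19 in the same order. Hemgn, Trim10 and Klf1 differed by 10.15 ± 0.35, 8.48 ± 0.20 and 7.87 ± 0.25 from scramble iMacs.

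Gfi1b, Tal1 and Nfe2 were also well above background in iMacs. Gfi1b, a zinc finger repressor of the red cell and platelet lineages, was at 10.06 and 10.17 in fetal liver and 11.09 and 11.16 in scramble iMacs, with 6.73 and 6.75 in adult liver and 5.97 to 6.48 in all cultured iHeps. Tal1, a helix-loop-helix factor of blood formation, was at 12.10 and 12.12 in fetal liver, 8.34 and 8.32 in scramble iMacs and at most 5.66 outside these lineages. Nfe2, a leucine zipper factor of red cells and platelets, was at 12.80 and 13.09 in fetal liver, 9.40 to 9.93 in the 6 iMac arrays and 4.13 to 5.90 elsewhere. Fetal liver was thus highest for Tal1 and Nfe2, and scramble iMacs were highest for Gfi1b.

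Against scramble iMacs, 30 of the 31 genes were higher in fetal liver and 1 was lower, where 32.5% of 15623 genes tested were higher and 30.1% lower. The lower gene was Gfi1b, at -1.01 ± 0.24 (adjusted p = 0.00122). Tal1 differed by 3.78 ± 0.18 and Nfe2 by 3.15 ± 0.26, while the median of the 31 genes was 5.36, against 0.08 over all genes. The smallest called difference was that of Tmod1, which caps the pointed ends of actin filaments in the red cell skeleton, at 0.69 ± 0.28 (adjusted p = 0.0404). Tmod1 lost its call without fetal replicate 2 (0.49, adjusted p = 0.248) and without scramble replicate 1 (0.70, adjusted p = 0.108) or replicate 2 (0.69, adjusted p = 0.116). Of the 31 genes, 6 passed the filter of the 25-array model only through fetal liver.

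The wider list of erythroid regulators and signalling had 22 other genes, all tested. Against adult liver 17 were higher and 0 lower, with Myb, a progenitor factor, at 7.39 ± 0.29 and Lmo2, a partner of Tal1, at 4.81 ± 0.43. Against scramble iMacs 13 were higher and 5 lower. The megakaryocyte and platelet list, which shares Gfi1b's and Nfe2's known lineage, averaged 9.43 and 9.56 in fetal liver, 6.13 to 6.79 in iMacs and 6.43 to 7.28 in adult liver. It rose in fetal liver with the regulators, with 10 of 13 genes higher than in adult liver, and its part in their signal was not tested.

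**Figure D4:**
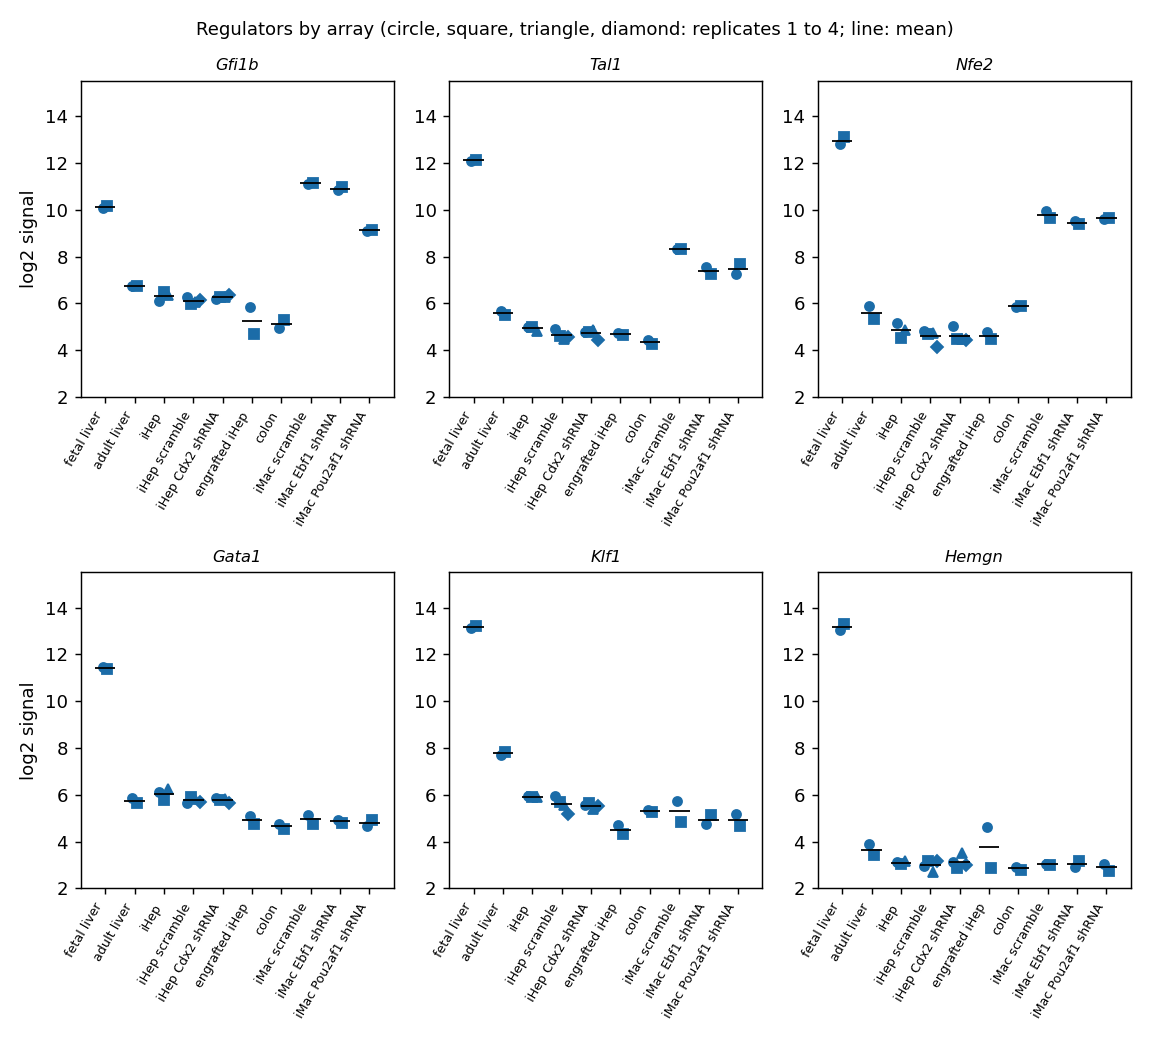
Log2 signal of 6 regulators in each array of the 10 groups (circles, squares, triangles and diamonds are replicates 1 to 4, lines are group means). Gfi1b, Tal1 and Nfe2 are high in fetal liver and in iMacs, with Gfi1b at 9.10 and 9.13 in the arrays labelled Pou2af1 shRNA, while Gata1, Klf1 and Hemgn are high in fetal liver.

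The shRNA targets were read first in the iMac arrays. Ebf1, an early B cell factor, was at 7.41 and 7.21 in the arrays labelled Ebf1 shRNA and 8.31 and 8.38 with scramble shRNA, a difference of -1.04 (adjusted p = 0.00389). Of its other 4 probe sets 3 were lower in the same way and 1, near background, was at 5.83 and 5.74 against 5.27 and 5.68. Pou2af1, a B cell coactivator with 1 probe set here, was at 11.34 and 11.26 in the arrays labelled Pou2af1 shRNA, 11.25 and 11.06 with scramble shRNA and 12 and 11.81 in those labelled Ebf1 shRNA. The Pou2af1 signal was thus not lower in the arrays labelled for it, where it differed from scramble by 0.14 (adjusted p = 0.495). This goes against the label as a knockdown at the level of RNA, and where the probe set lies relative to the shRNA site was not analysed here. Directions below for these arrays compare the labelled arrays with scramble shRNA.

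Most of the 31 genes did not pass the test, or could not be tested, under the shRNAs in iMacs. Of the 31 genes, 18 passed the filter there and 13 did not, among them Gata1, Klf1, Hemgn, Rhag and Slc4a1. In the arrays labelled Pou2af1 shRNA 3 of the 18 were lower and 0 higher, where 5.14% of 12484 genes tested were lower and 6.79% higher. Gfi1b went from 11.09 and 11.16 to 9.10 and 9.13, with no overlap, a difference of -2.01 ± 0.10 (adjusted p = 0.000497). It ranked second from the lowest of all 12484 genes by this difference, and its call held under every alternative in which it was tested. The B lineage mean was 9.85 to 9.86 in these arrays and 9.18 to 9.30 with scramble shRNA (5 of 9 markers higher), and the macrophage mean was 7.63 to 7.66 and 6.98 to 7.16 (4 of 8 higher). In the arrays labelled Ebf1 shRNA the B lineage mean was 8.84 to 8.88 (1 higher and 4 lower of 9) and the macrophage mean 7.35 to 7.48 (3 higher and 1 lower of 8). The B lineage list includes both shRNA targets, so it is not independent of the shRNAs. With Ebf1 shRNA, Ebf1 had its lowest difference, -1.04, and Pou2af1 its highest, 0.75. The part of these markers in the results was not tested.

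Tal1 was at 7.27 and 7.70 in the arrays labelled Pou2af1 shRNA and 7.54 and 7.26 with Ebf1 shRNA, against 8.34 and 8.32 with scramble shRNA. Both shRNA groups lay below the scramble arrays and overlapped each other. The differences were -0.85 ± 0.17 (adjusted p = 0.0304) and -0.93 ± 0.17 (adjusted p = 0.0212), and since both comparisons share the scramble arrays they are not independent. With Ebf1 shRNA Tal1 was the 1 gene called lower of 18 and 0 were higher, where 8.16% of genes were lower and 6.21% higher. Its call with Ebf1 shRNA was lost without Ebf1 shRNA replicate 2 (-0.79, adjusted p = 0.0812) and without scramble replicate 1 (-0.92, adjusted p = 0.11) or replicate 2 (-0.94, adjusted p = 0.0895). In the arrays labelled Pou2af1 shRNA it was lost without replicate 1 of that label (-0.63, adjusted p = 0.117) and without scramble replicate 1 (-0.83, adjusted p = 0.133) or replicate 2 (-0.86, adjusted p = 0.12).

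The remaining gene lower in the arrays labelled Pou2af1 shRNA was Alad, at 8.41 and 8.30 against 8.99 and 9, a difference of -0.64 ± 0.11 (adjusted p = 0.0179). Its call was lost when any 1 of these 4 arrays was left out, with adjusted p between 0.076 and 0.0986. Nfe2 was at 9.61 and 9.66 in the arrays labelled Pou2af1 shRNA, 9.50 and 9.40 with Ebf1 shRNA and 9.93 and 9.65 with scramble shRNA, and neither difference passed the test. Of the wider lists in the arrays labelled Pou2af1 shRNA, 3 of 20 tested haem and iron genes were higher, Blvrb by 1.01, Hmox1, haem oxygenase 1, by 0.98 and Blvra by 0.65. With Ebf1 shRNA 5 of the 20 were higher and 1 lower, Blvrb by 1.81 and Alas1 by 0.65.

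The receptors differed in how they were measured. Epor, the erythropoietin receptor, was at 11.53 in both fetal arrays, 7.28 and 7.20 in adult liver, 7.71 to 7.88 in the 3 iHep lines and 5.43 to 6.16 in iMacs. Fetal liver stood above adult liver by 4.29 ± 0.26 and above iHeps by 3.75 ± 0.24. Tfrc, the transferrin receptor that brings iron into the cell, was at 13.47 and 13.39 in fetal liver, 11.18 and 10.12 in adult liver, 11.53, 11.19 and 11.19 in iHeps and 9.70 to 9.96 in iMacs. Its differences were 2.78 ± 0.33 from adult liver and 2.13 ± 0.30 from iHeps, the second smallest of the 31 against iHeps after Xk.

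The other 2 Tfrc probe sets ordered the groups otherwise. A second probe set gave 8.62 and 9.25 in fetal liver, 11.26 and 11.21 in colon, 9.80 and 10.05 in scramble iMacs and 4.95 to 6.19 in iHeps. Another gave 10.57 and 10.72 in fetal liver, 10.16 and 10.28 in colon and 6.85 to 7.46 in iHeps. All 3 placed fetal liver above adult liver and iHeps, and they disagreed on colon and iMacs. The array's own 5′ minus 3′ control probe sets for this transcript read -2.69 to -0.87 in the 15 arrays with high control RNA signal and -0.16 to 1.06 in the other 10, and the part of this in the disagreement was not tested. With the mean of the 3 probe sets Tfrc was higher in fetal liver than in colon by 0.24 and lost its call (adjusted p = 0.448).

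**Figure D5:**
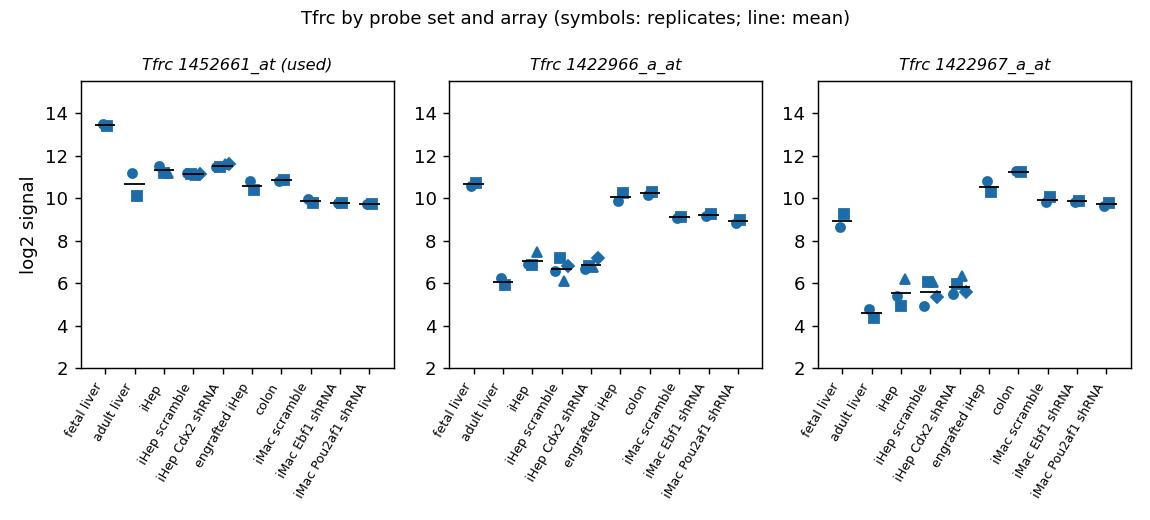
Log2 signal of the 3 Tfrc probe sets in each array of the 10 groups (symbols are replicates, lines are group means). The used probe set is highest in fetal liver at 13.47 and 13.39, while a second probe set is highest in colon at 11.26 and 11.21.

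The membrane and blood group genes held the widest range of differences from adult liver, 1.77 to 9.19. Rhag was at 12.91 and 13.11 in fetal liver and 3.05 to 3.96 in every other array. Slc4a1 was at 14.21 and 14.46 in fetal liver, 6.66 and 4.61 in adult liver and 3.81 to 5.04 elsewhere. Kel, which carries the Kell blood group, was at 12.13 and 12.49 in fetal liver and 4.17 to 5.44 elsewhere. These 3 genes thus had no array outside fetal liver with more than a low signal, adult liver replicate 1 for Slc4a1 apart.

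Rhag differed from adult liver by 9.19 ± 0.24, Slc4a1 by 8.70 ± 0.52 and Kel by 7.25 ± 0.29. Ermap, which carries the Scianna blood group, differed by 6.45 ± 0.29, Rhd, the Rh blood group gene, by 6.28 ± 0.28 and Tspo2 by 6.14 ± 0.36. Tmod1 differed by 5.24 ± 0.36, Epb42, protein 4.2 of the membrane skeleton, by 4.97 ± 0.28 with the probe set used and Ank1, the ankyrin that ties band 3 to spectrin, by 3.61 ± 0.58. Add2, beta adducin, and Xk, partner of the Kell protein, differed by 2.15 ± 0.28 and 1.77 ± 0.25. The other probe set of Epb42 was at 12.61 and 12.88 in fetal liver and 3.37 and 3.29 in adult liver, a difference of 9.42, so the place of Epb42 in this order depends on the probe set.

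Rhd and Tmod1 were well above background in iMacs, and Add2 was at 6.90 to 7.28 in the 6 iMac arrays, against 9.22 and 9.06 in fetal liver. Rhd was at 8.98 and 9.06 in scramble iMacs, 6.43 to 6.68 in iHeps, 7.24 and 7 in adult liver and 13.33 and 13.48 in fetal liver. Tmod1 was at 11.25 and 11.66 in fetal liver, 10.69 to 10.81 in the 6 iMac arrays, 10.64 and 10.72 in colon, 9.87 and 11.14 in engrafted iHeps and 6.13 to 7 in adult liver and all cultured iHeps. Outside fetal liver, the 10 arrays with Tmod1 at 9.87 or more were the 10 with low control RNA signal, and the part of that in the result was not tested. For Tmod1 the single probe set gave no second reading.

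Against colon, 30 genes were higher in fetal liver and 0 lower, where 30.0% of 15262 genes tested were higher and 26.1% lower. The gene that did not pass was Tmod1, at 0.78 ± 0.36 (adjusted p = 0.0927). Hemgn (10.32 ± 0.46), Slc4a1 (10.29 ± 0.52) and Rhag (9.72 ± 0.24) had the largest differences of the 31 genes, against colon levels near background. Xk, at 6.22 and 6.06 in colon, was called with 0.75 ± 0.25 (adjusted p = 0.0277) and lost the call without fetal replicate 2 (0.46, adjusted p = 0.20) and without colon replicate 1 (0.83, adjusted p = 0.0697) or replicate 2 (0.67, adjusted p = 0.129).

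The wider list of red cell membrane and late red cell genes had 24 of 38 tested. Against adult liver 20 were higher and 1 lower, with Tmcc2 at 7.46 ± 0.36 and Icam4, the Landsteiner-Wiener blood group gene, at 7 ± 0.25. Against iHeps 21 were higher and 0 lower, with Tmcc2 at 6.91 ± 0.33 and Icam4 at 6.1 ± 0.23. In the iMac comparison 21 were higher and 1 lower, the lower being Hba-a2, an adult alpha globin named after its values were seen. Its probe set gave 12.26 to 12.51 in the 6 iMac arrays and 10.50 to 10.93 in engrafted iHeps and colon. In fetal liver, adult liver and all cultured iHeps it gave 4.61 to 5.98. This again ran along the control RNA signal, whose part was not tested. The probe sets given to several globin symbols had the other order, at 13.79 to 15.01 in fetal liver and 3.86 to 8.35 in iMacs. The Hba-a2 reading therefore does not describe the globin signal of these groups, and what its probe set measured was not tested.

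Adult liver was also compared with iHeps, in the same 11-array model, whose filter and spread include the fetal arrays. Of the 31 genes 12 were higher in adult liver and 0 lower, where 18.2% of genes tested were higher and 37.8% lower, and the median was 0.57 against -0.26 over all genes. With each array centred on its median the calls were 10 higher and 3 lower, and with quantile normalization repeated 15 higher and 0 lower. In the same comparison 14 of 18 hepatocyte markers (mean 13.03 to 13.17 against 6.59 to 8.44) and 12 of 13 macrophage markers (8.86 to 10.61 against 5.11 to 5.29) were higher, and 9 of 9 proliferation markers were lower (5.62 to 6.32 against 10.91 to 11.68). Their part in the result was not tested. The higher members were Alas2, Alad, Uros, Cpox and Ppox of the haem pathway, and the globins Hbb-b2 and Hbb-bh1. Also higher were the regulators Klf1, Tal1, Nfe2 and Trim10, and Ermap. Tal1 was near background in both groups, at 5.66 and 5.51 in adult liver and 4.82 to 5 in iHeps. Nfe2, at 5.87 and 5.32 in adult liver, and Hbb-b2, at 5.64 and 6.18, were near background in an adult array each. Both were also near background in all iHep arrays.

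Among the higher members, Alas2 differed most, by 3.60 ± 0.39, then Hbb-b2 by 2.56 ± 0.30 and Cpox by 2.15 ± 0.34. Alad and Klf1 came next at 1.91 ± 0.26 and 1.84 ± 0.19. Uros, Ppox and Ermap followed at 1.47 ± 0.25, 1.42 ± 0.26 and 1.18 ± 0.26. Fech (0.52 ± 0.20, adjusted p = 0.05) and Urod (-0.48 ± 0.19, adjusted p = 0.0547) did not pass. Without adult replicate 1 the calls of Hbb-bh1 (0.69, adjusted p = 0.17), Nfe2 (0.47, adjusted p = 0.248), Tal1 (0.58, adjusted p = 0.0601) and Trim10 (0.57, adjusted p = 0.161) were lost. Nfe2 and Trim10 also lost theirs without iHep replicate 2 (adjusted p = 0.112 and 0.0859) or replicate 3 (adjusted p = 0.0653 and 0.0586). With probe sets averaged, Hbb-bh1 (0.46, adjusted p = 0.0886) and Uros (0.46, adjusted p = 0.175) lost their calls.

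The adult liver arrays differed from each other in several of these genes. Slc4a1 was at 6.66 in replicate 1 and 4.61 in replicate 2, a gap that 0.957% of genes tested reached, and 21 of the 31 genes were higher in replicate 1. Cpox went the other way, at 9.35 and 10.51. The macrophage marker mean was 10.61 in replicate 1 and 8.86 in replicate 2, the megakaryocyte and platelet mean 7.28 and 6.43 and the B lineage mean 6.75 and 5.84, and their part in the result was not tested.

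In engrafted iHeps 8 of the 31 genes differed from cultured iHeps, 2 higher and 6 lower, where 18.2% of genes tested were higher and 29.7% lower. With quantile normalization repeated the calls were 4 higher and 6 lower. Tmod1 was higher by 3.87 ± 0.33 (adjusted p = 1.93e-05), at 9.87 and 11.14 against 6.74, 6.57 and 6.61 in iHeps. Epb42 was higher by 1.33 ± 0.25, at 6.17 and 6.81 against 5.01, 5.15 and 5.34, but its other probe set gave 3.50 and 3.41 in engrafted and 2.84 to 3.03 in cultured iHeps, all near background.

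The 6 lower genes were Ank1 (-2.22 ± 0.53), Epor (-1.58 ± 0.24), Uros (-1.56 ± 0.25), Klf1 (-1.41 ± 0.19), Gata1 (-1.13 ± 0.22) and Gfi1b (-1.04 ± 0.31). Klf1, at 4.69 and 4.33, and Gata1, at 5.09 and 4.76, were near background in engrafted iHeps, and their iHep levels of 5.90 to 5.96 and 5.76 to 6.25 lay just above it. Ank1 was at 4.48 and 6.1, from 7.49 to 7.54 in iHeps, and lost its call without engrafted replicate 1 (-1.41, adjusted p = 0.0544). Gfi1b was at 5.84 and 4.69 and lost its call without engrafted replicate 2 (-0.46, adjusted p = 0.149), without iHep replicate 2 (-0.95, adjusted p = 0.0628) and without iHep replicate 3 (-1.02, adjusted p = 0.0507). With the mean of probe sets Ank1 (-0.45, adjusted p = 0.0815) and Uros (-0.69, adjusted p = 0.062) lost their calls. The macrophage marker mean was 5.07 in engrafted replicate 1 and 7.12 in replicate 2, against 5.11 to 5.29 in cultured iHeps, with Lyz2 at 6.11 and 11.37 and Csf1r at 4.04 and 9.74. Of the proliferation markers 1 was higher and 5 lower of 9 (mean 10.22 to 10.64 against 10.91 to 11.68), and of the hepatocyte markers 2 were higher and 6 lower of 18. Their part in the result was not tested. The globins did not pass the test in this comparison, with Hbb-b2 at 4.48 and 3.64 against 3.27 to 3.43.

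In iHeps the target Cdx2, an intestinal homeobox factor, was at 7.78, 8.02, 8.01 and 8.03 with Cdx2 shRNA and 9.14, 9.42, 8.96 and 8.98 with scramble shRNA, a difference of -1.16 (adjusted p = 0.00397). With Cdx2 shRNA 1 of the 19 genes that passed the filter, Tfrc, was higher and 0 were lower by limma, where 0.535% of 13650 genes tested were higher and 1.68% lower. Tfrc was at 11.44, 11.47, 11.58 and 11.58 with Cdx2 shRNA and 11.18, 11.15, 11.10 and 11.15 with scramble shRNA, with no overlap. The difference was 0.37 ± 0.07 (adjusted p = 0.0379), and the call was lost when any 1 of the 8 arrays was left out, with adjusted p between 0.052 and 0.124. The groups overlapped in the other Tfrc probe sets, and with the mean of probe sets the call was also lost (0.27, adjusted p = 0.371). With the replicate number as a block, calls over all genes went from 302 to 760 and Tfrc kept its call (adjusted p = 0.042). The other 18 genes had differences between -0.20 and 0.30. The 12 genes that did not pass the filter, Alas2, Tal1, Hemgn and Rhag among them, were not tested.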

How the data were processed

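RNA of 25 samples (100 ng each, amplified and biotin-labelled per the labels' protocols) was measured on Affymetrix mouse arrays. The deposited values are log2 signals of 45101 probe sets that the authors made with RMA, per the submitters' processing notes, with no version stated there. RMA corrects background and makes array distributions alike, so differences are relative to each array's other genes. No depth exists for arrays, and their number limits the precision.

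Probe sets with 1 gene symbol in the platform annotation (34945) were kept, and each gene took its brightest probe set. Values were fitted by lmFit and eBayes of limma 3.58.1 (R 4.3.3), with Benjamini-Hochberg adjustment over all genes tested in a comparison. Only genes whose signal exceeded the array's 40th percentile on 2 or more of the arrays fitted were tested. Liver, iHep, engrafted and colon arrays (11) formed 1 model, iMacs (6) another and the iHep shRNA arrays (8) a model of their own, while fetal liver against iMacs used all 25. Scripts were tested on simulated data, and matplotlib 3.10.9 (Python 3.11.15) drew the figures.

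Replicate numbers were shared by the Cdx2 shRNA and scramble iHeps, and their same-numbered arrays deviated together (correlations 0.53, 0.32, 0.58 and 0.44); in the other models they did not. Alternatives were another filter and none, the mean of probe sets, leaving out shared-probe sets, repeated quantile normalization, trend and robust fits, a replicate block, other sets of arrays and leaving out each array. Centring each array on its median, the liver and iHep arrays alone and a crossed block were added after seeing the data. The named genes were all members, and of each wider list up to 4 called genes with the largest differences and up to 2 not called. The members and lists were chosen with earlier results of these data known.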

Additional observations from a re-analysis of the deposited data

Results flagged for a closer look

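In groups of 4 to 10 samples, 62 pairs of a group and a measured gene were examined for an array far from the rest, and 2 stood out, where chance alone gives about 1 in 20. Epor was at 7.56 in scramble iHep replicate 1, while the other 3 arrays of that group lay at 7.31 to 7.35. Nfe2 was at 5.03 in Cdx2 shRNA iHep replicate 1, while the other 3 lay at 4.42 to 4.49, all near background.

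Probe sets that the annotation gives to several globin symbols name no single gene and were used in no comparison, but they carried a strong signal. The probe set with 4 symbols had a mean of 15.0 in fetal liver, and the 3 with 2 symbols each had means of 13.79, 14.96 and 14.96. For all 4, both fetal arrays lay above each of the other 23, and the adult liver arrays came next at 10.98 to 13.87. In engrafted iHeps replicate 1 was the higher array for all 4, at 10.4 against 7.82, 7.04 against 5.71, 8.81 against 6.85 and 8.56 against 4.01, and colon lay at 9.90 and 9.75, 6.12 and 6.05, 8.88 and 8.74, and 7.88 and 7.56 for the same probe sets.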

How the results depend on the processing

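When single arrays were left out, the number of members called ran from 26 to 31 against adult liver and against iHeps, 24 to 29 against colon, 26 to 30 against scramble iMacs, 9 to 13 for adult liver against iHeps, 7 to 9 for engrafted iHeps, 0 to 1 for Ebf1 shRNA, 1 to 2 for the arrays labelled Pou2af1 shRNA and 0 to 0 for Cdx2 shRNA. In the first 2 of these comparisons every member tested was called each time, and the lower counts came from members that no longer passed the filter. Under the other settings the counts were 30 to 31, 30 to 31, 28 to 31, 30 to 31, 9 to 21, 7 to 14, 1 to 4, 2 to 4 and 0 to 1 in the same order. With all 25 arrays in the model 21 members were called for adult liver against iHeps and 14 for engrafted iHeps. For Ebf1 shRNA 4 were called with the 60th percentile filter, with the mean of probe sets and with trend and robust fits, and for Cdx2 shRNA 0 with no filter, with the mean of probe sets and with all 25 arrays; the cause was not tested. With the mean of probe sets, Xk against colon turned to -0.242 and Tfrc in engrafted iHeps to 2.427, so these directions depend on the probe set used. The replicate block gave 31, 31, 29, 31, 9, 7, 1, 2 and 1 members; it ended the calls of Nfe2, Tal1 and Trim10 in adult liver, of Xk against colon, of Gfi1b in engrafted iHeps and of Tal1 in the arrays labelled Pou2af1 shRNA. Pairing fetal with adult arrays crosswise, since same-numbered arrays correlated at -0.15, kept 31 members and 7168 genes called. Repeated quantile normalization moved the share of called genes that were higher from 63.1% to 52.4% for fetal against adult liver, from 39.6% to 50.0% for fetal liver against iHeps, from 32.5% to 47.8% for adult liver against iHeps and from 24.2% to 34.3% for Cdx2 shRNA. It moved the median of all genes from 0.158 to -0.0166, and from -0.26 to 0.0169 for adult liver against iHeps. Over all genes, Ebf1 shRNA called 432 genes and the arrays labelled Pou2af1 shRNA 315 with all 25 arrays, against 1794 and 1490, and Cdx2 shRNA 73 against 302. Signals near background limit the differences of genes that are low outside fetal liver.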
